A study of Mus musculus with 68 samples.

Results

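Ucma, Mgp and Scrg1 code for small secreted products of chondrocytes, and all 3 were read by their gene symbols from a table of 23420 symbols. They were followed over the zones of mouse growth plate cartilage, over age and over fixation. The animals were untreated mixed-background mice aged 2, 3 or 28 days after birth (P2, P3 and P28), and no genotype is given for them. Laser capture took cells of each zone, resting, proliferative or hypertrophic, from frozen sections 10 microns thick, and these were turned into full-length cDNA libraries by SMART-seq2, a method for small inputs. The groups were ethanol-fixed P2 sections, ethanol-fixed P28 sections and xylene-fixed P28 sections, each in 3 zones, plus a single ethanol-fixed P3 animal. For P2 animal D and for P28 animal B the label is in the plural, and material of more than 1 animal may have been pooled there.

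Growth plate chondrocytes pass from a slowly dividing resting pool to columns of dividing cells and then enlarge into hypertrophic cells that precede bone. Ucma and Mgp belong to the vitamin K-dependent proteins: the enzyme gamma-glutamyl carboxylase (Ggcx) turns some of their glutamate residues into Gla residues, which bind calcium. Mgp, matrix Gla protein, restrains mineralisation of cartilage and arteries and binds bone morphogenetic proteins. Ucma, also called Gla-rich protein, is known as a product of the upper zone of growth plate cartilage. Scrg1 was named as a gene that responds to scrapie and is also known from cartilage.

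In the GENCODE M21 annotation of GRCm38, the build also called mm10, Ucma lies on the plus strand at chr2:4976122-4985748 with 884 bases of exon in 5 blocks. Mgp lies on the minus strand at chr6:136872435-136875823 with 1187 bases in 4 blocks. Scrg1 lies on the plus strand at chr8:57455923-57477585 with 700 bases in 3 blocks. None of the 3 overlaps another annotated gene. Ucma had the greatest fold difference between zones of the 3 genes, and the 250 bases before its start, at chr2:4975872-4976121 on the plus strand of GRCm38.p6 (RefSeq), are shown for that reason. Capitals mark a CCAAT box and, behind it, ACCACA, the reverse complement of the RUNX core TGTGGT.
Ucma promoter: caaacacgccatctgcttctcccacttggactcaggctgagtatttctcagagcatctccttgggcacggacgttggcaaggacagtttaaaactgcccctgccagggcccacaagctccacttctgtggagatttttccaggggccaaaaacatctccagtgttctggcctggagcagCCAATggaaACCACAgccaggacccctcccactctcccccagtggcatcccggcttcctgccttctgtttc
Both strands were searched. CCAAT began 71 bases before the start and occurs in 33.8% of 32851 mouse promoters of this length, and the RUNX core began 62 bases before the start and occurs in 14.0%. The SOX motif AACAAT, found in 9.4% of promoters, and TATAAA, found in 12.4%, were not found in these letters. The motifs describe the sequence, and no binding was measured.

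The table holds 68 libraries of 748 to 3347722 counts. Libraries of at least 100000 counts were used, 26 of the 51 ethanol-fixed P2 and P28 libraries and 12 of the 14 xylene-fixed ones. They were summed per animal and zone into 21 ethanol sums (4 animals per zone at P2, 3 at P28) and 6 xylene sums. Library totals include the symbols Rn45s, Lars2 and Glra2, which took most counts of some hypertrophic libraries. Counts outside them were 44414 of 295961 in P2 animal A and 20032 of 252800 in P2 animal C. A total of 100000 counts is thus not the depth left for other genes. Levels of sums are counts per 1000000 (CPM) scaled by edgeR's trimmed mean of M values (TMM). Values of single libraries, marker lists and pooled counts are CPM over library totals, with those symbols included and without that scaling. At P2 and at P28, 3 animals had all zones, and the labels do not say whether libraries of an animal came from separate captures of cells. In laser-captured tissue, fewer cells of a type and less RNA per cell cannot be told apart.

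Some libraries hold markers that go against their labels. A xylene hypertrophic library of P28 animal D (replicate 3) held 62781 CPM of the bone collagen Col1a1 and 32.9 CPM of Col10a1, the collagen of hypertrophic cells. The resting library of P28 animal A held 14199 CPM of Col10a1, against 14.7 and 26.9 CPM in the resting libraries of P28 animals B and D. It also held the highest sum of resting-zone markers among the P28 resting libraries (1998 CPM, 7 of 7 detected). The proliferative libraries of P28 animal A held 5667.7 and 2983.5 CPM of Col10a1. A hypertrophic library of P28 animal D (replicate 8) held 129 CPM of Col10a1, but 13080 of its 753525 counts lay outside Rn45s, Lars2 and Glra2. It held 97 Col10a1 beside 1170 Col2a1 counts, where the resting library of that animal held 7 beside 5902. Its low CPM alone does not go against its label. Sex-linked counts clashed within P28 animal D, whose proliferative replicate 9 held 267 Xist counts where its resting library held 0 Xist and 76 Y-linked counts, and within the resting library of P2 animal G, with 128 Xist and 747 Y-linked counts. The summed resting-zone marker list (7 genes) reached 1202 to 1998 CPM in P28 resting and 55.4 to 348 CPM in P28 proliferative libraries. At P2 it did not separate these zones, with 29.5 to 841 CPM in resting and 56.9 to 937 CPM in proliferative libraries.

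At P2, Ucma and Scrg1 both fell in the hypertrophic zone, and at P28 they fell again, while no hypertrophic against proliferative difference of Mgp passed the test at either age. For hypertrophic against proliferative at P2, 2 of the 3 genes passed an adjusted p of 0.05, against 2.31% of the 6958 genes tested (edgeR quasi-likelihood test, Benjamini-Hochberg adjustment over all of them). For resting against hypertrophic at P2, 2 of the 3 passed, against 3.77% of all genes. At P28, 2 of the 3 passed for hypertrophic against proliferative (1.12% of all genes) and 1 of the 3 for resting against hypertrophic (1.77%). For resting against proliferative, 0 of the 3 passed at P2 (0.259% of all genes) and 0 of the 3 at P28 (0.561%). Unadjusted, 288 genes at P2 and 729 at P28 had p under 0.05 in that comparison, and DESeq2 also called 0 of the 3 there. The zone comparisons of 1 age share sums with each other and are not independent.

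**Figure D1:**
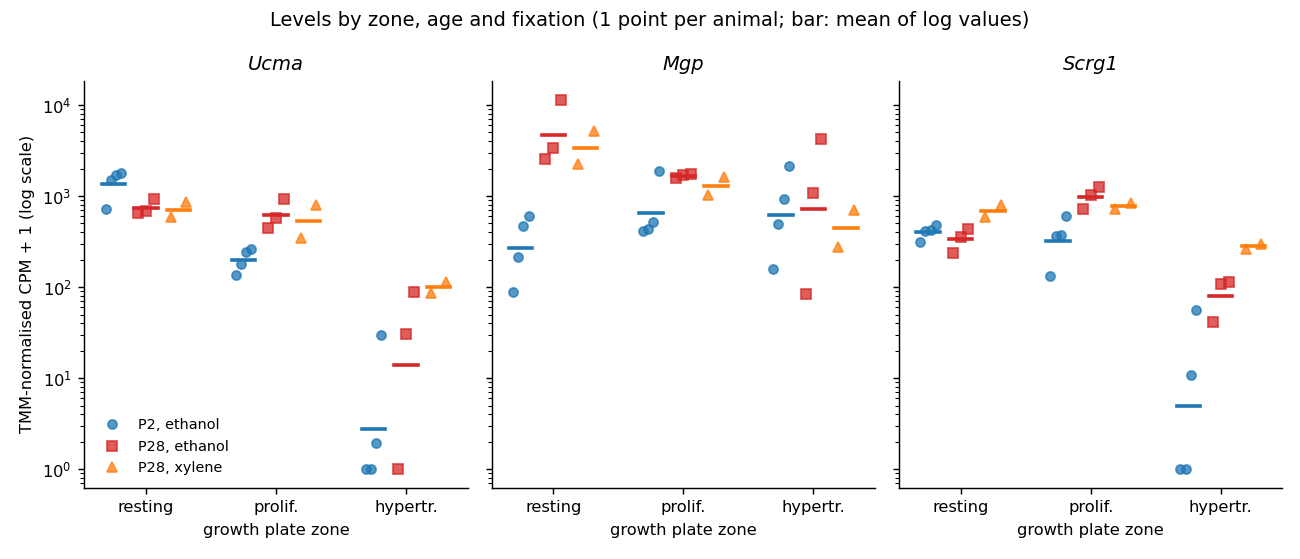
Levels of Ucma, Mgp and Scrg1 as TMM-normalised CPM + 1 on a log axis, by zone, with 1 point per animal and a bar at the mean of the log values for P2 ethanol, P28 ethanol and P28 xylene. Ucma steps down from resting to hypertrophic at P2, where 2 of the 4 hypertrophic points are at 0 CPM, and Mgp in the resting zone reaches 2577 to 11468 CPM at P28 against 87.5 to 604 CPM at P2.

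Ucma at P2 was 719, 1713, 1797 and 1482 CPM in the resting sums of animals A, D, F and G. It was 178, 258, 136 and 245 CPM in the proliferative sums of animals A, D, E and G. In the hypertrophic sums it was 0 CPM in animals A and D, 28.8 CPM in animal C, which rests on 2 counts, and 0.955 CPM in animal G, also 2 counts. The 3 zones did not overlap, and all 4 resting sums stood above all proliferative sums, which stood above all hypertrophic ones. A count of 0 allows up to 28.5 CPM in animal A and 7.39 CPM in animal D (3 counts per sum), so the level in animal C cannot be set apart from that in animal A at this depth.

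Ucma fell by 8.36 ± 1.13 (SE) on the log2 scale from the proliferative to the hypertrophic zone at P2 (adjusted p = 2.34e-10, edgeR quasi-likelihood test, lower in 3 of 3 animals with both zones). Pooled over the sums, 4 counts in the hypertrophic zone stood against 1092 in the proliferative zone. The ratio of CPM over library totals was 0.00322. Its 95% exact interval of 0.000875 to 0.00826 covers counting error alone. Resting exceeded hypertrophic by 10.81 ± 1.18 on the log2 scale (adjusted p = 8.65e-17). Both calls held with each animal left out in turn, with changes of -10.03 to -8.07 and of 10.39 to 12.36.

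Between resting and proliferative at P2, Ucma was 4.04-fold higher in resting in animal A, 6.63-fold in animal D and 6.05-fold in animal G. The pooled counts of 14407 and 1092 gave a ratio of 6.36 (95% counting interval 5.98 to 6.77). The groups did not overlap, but the difference of 2.45 ± 0.73 on the log2 scale missed the threshold over all genes (adjusted p = 0.191). It passed without P28 animal D (2.40, adjusted p = 0.0228), whose sums enter through the shared spread, and with the P3 animal added to P2 (2.45, adjusted p = 0.0211).

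At P28, Ucma was 677, 918 and 657 CPM in the resting sums of animals A, B and D, and 569, 443 and 936 CPM in the proliferative sums. In the hypertrophic sums it was 0 CPM in animal A, where the limit of a 0 count is 24.1 CPM. It was 87.4 CPM in animal B on 28 counts and 29.6 CPM in animal D on 12 counts. Hypertrophic replicate 5 of animal B held all 28 of its counts, and replicate 6, with a total of 220787 counts, held 0. The resting and proliferative groups overlapped, and every hypertrophic sum stood below them. Ucma fell by 4.35 ± 0.84 on the log2 scale from proliferative to hypertrophic (adjusted p = 1.82e-04, edgeR) and was higher in resting than in hypertrophic by 4.50 ± 0.83 (adjusted p = 3.29e-05). Without P28 animal A the first of these was -3.65 with adjusted p = 0.0811. Resting against proliferative gave 0.15 ± 0.70 (adjusted p = 0.965), with 1.19-fold, 2.07-fold and 0.702-fold in animals A, B and D. Without the resting library of P28 animal A, which held Col10a1, resting against proliferative turned to -0.41 (adjusted p = 0.892) and resting against hypertrophic was 4.12 (adjusted p = 9.73e-04). Without proliferative replicate 9 of P28 animal D, hypertrophic against proliferative was -3.78 (adjusted p = 0.0106). Without its hypertrophic replicate 8, which held few counts outside Rn45s, Lars2 and Glra2, it was -4.33 (adjusted p = 2.21e-04).

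The size of the resting against hypertrophic difference of Ucma was smaller at P28 than at P2 by 6.31 ± 1.34 on the log2 scale (interaction, adjusted p = 0.00349, edgeR). Of all genes, 0.273% passed for this interaction. In pooled counts the hypertrophic to resting ratio was 5.05e-04 (0.000138 to 0.00129) at P2 and 0.0158 (0.0111 to 0.0218) at P28. The intervals did not overlap, but the ratios are over library totals and the intervals cover counting error alone. The P2 value rests on 4 hypertrophic counts and the P28 value on 40, of which 28 came from hypertrophic replicate 5 of P28 animal B. Set against the median of all genes the interaction was -5.49, and -5.42 under the scaling of DESeq2 run in edgeR. The call was lost without P2 animal D (-5.84, adjusted p = 0.363), without P2 animal G (-7.83, adjusted p = 0.186), without P28 animal B (-5.32, adjusted p = 0.323), and when the library minimum was lowered (-2.97, adjusted p = 0.713). Col10a1 was at 9278, 1598, 38870 and 49078 CPM in the P2 hypertrophic libraries and at 129 to 91219 CPM in the P28 ones. These values are over library totals, of which Rn45s, Lars2 and Glra2 took unequal shares. The part of Col10a1 in the result was not tested. The interactions of hypertrophic against proliferative (4.01 ± 1.33, adjusted p = 0.454) and of resting against proliferative (-2.30 ± 1.0, adjusted p = 0.629) missed the threshold. Of all genes, 0% and 0.144% passed for these, and 413 and 472 had an unadjusted p under 0.05 (DESeq2 called 74 and 44 genes).

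Scrg1 at P2 was 314, 483, 423 and 414 CPM in the resting sums of animals A, D, F and G. It was 130, 370, 610 and 365 CPM in the proliferative sums of animals A, D, E and G, and the resting and proliferative groups overlapped. The hypertrophic sums held 0 CPM in animals A and C, 9.85 CPM in animal D on 4 counts and 54.5 CPM in animal G on 114 counts, all below the other zones. A count of 0 allows up to 28.5 CPM in animal A and 43.3 CPM in animal C. Scrg1 was 37.6-fold lower in hypertrophic than in proliferative cells in animal D and 6.70-fold lower in animal G.

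Scrg1 fell by 3.92 ± 0.90 on the log2 scale from proliferative to hypertrophic at P2 (adjusted p = 0.00192, edgeR) and was higher in resting than in hypertrophic by 4.60 ± 0.93 (adjusted p = 1.11e-04). The first call was lost without P2 animal A (-3.65, adjusted p = 0.0571) and without P2 animal D (-3.31, adjusted p = 0.232), and the second without P2 animal D (4.15, adjusted p = 0.0693). Leaving out libraries with under 50000 counts outside the 3 symbols Rn45s, Lars2 and Glra2, a choice made after seeing the data, gave -3.52 for the first with adjusted p = 0.0631. Resting against proliferative gave 0.68 ± 0.76 (adjusted p = 1), although resting was higher in 3 of 3 animals.

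At P28, Scrg1 was 434, 238 and 358 CPM in the resting sums of animals A, B and D and 1013, 717 and 1242 CPM in the proliferative sums. The hypertrophic sums held 40.2, 112 and 109 CPM. The 3 zones did not overlap: proliferative sums were highest and hypertrophic sums lowest in each animal. The fall from proliferative to hypertrophic was 3.47 ± 0.83 on the log2 scale (-3.47, adjusted p = 0.00694, edgeR). Without proliferative replicate 9 of animal D it was -3.43 (adjusted p = 0.0299), and without hypertrophic replicate 8 of that animal -3.46 (adjusted p = 0.00790). It missed the threshold without P28 animal A (-3.05, adjusted p = 0.355) and without P28 animal B (-3.90, adjusted p = 0.102). Resting was lower than proliferative by 2.34-fold, 3.01-fold and 3.47-fold in animals A, B and D, but the fitted difference of -1.51 ± 0.76 missed the threshold (adjusted p = 0.471). Resting against hypertrophic gave 1.96 ± 0.80 (adjusted p = 0.225), and no interaction of Scrg1 with age passed, with adjusted p of 0.419 to 1.

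The median of all genes was itself -0.81 on the log2 scale for resting against proliferative at P28, and -0.24 under the other scaling tried, the size factors of DESeq2 run in edgeR. Set against that median, Ucma was higher by 0.96 and by 1.0 under these scalings, Mgp by 2.32 and 2.41, and Scrg1 was at -0.70 and -0.65. For resting against hypertrophic at P28 the all-gene median moved from -0.27 to 0.12, and Ucma stood above it by 4.76 and 4.89.

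**Figure D2:**
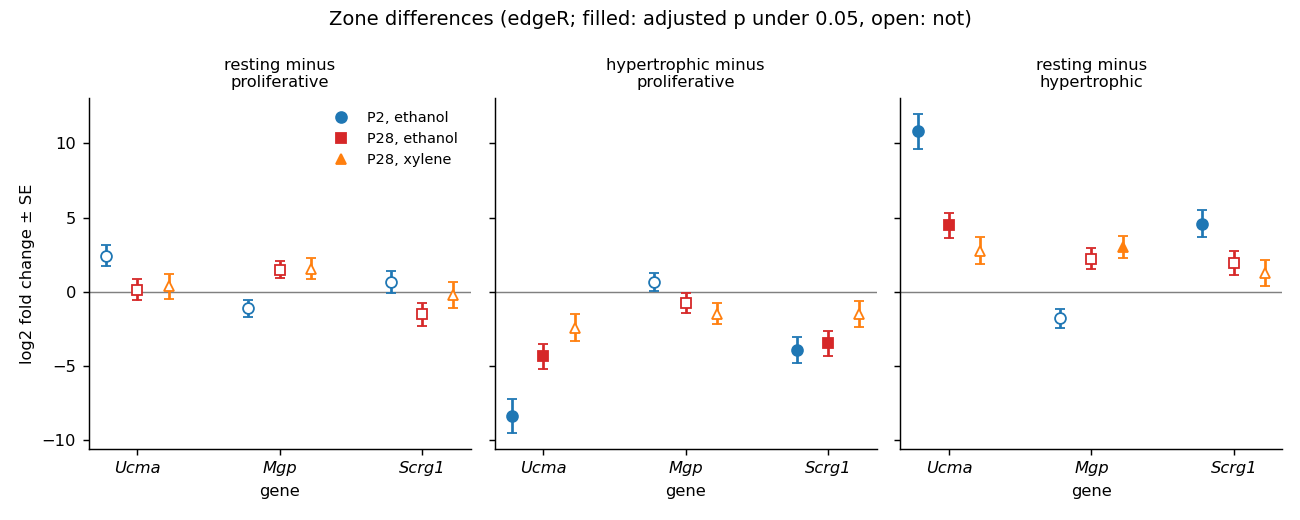
Zone differences of each gene as the log2 fold change with its SE from edgeR, for resting minus proliferative, hypertrophic minus proliferative and resting minus hypertrophic, at P2, at P28 and in xylene-fixed P28 sections; filled symbols passed an adjusted p of 0.05. Ucma and Scrg1 lie below 0 for hypertrophic minus proliferative in all 3 groups, and the resting minus hypertrophic values of Mgp lie at -1.79 at P2 and 2.25 at P28.

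Mgp had another pattern. At P2 it was 87.5, 604, 215 and 471 CPM in the resting sums of animals A, D, F and G. The proliferative sums held 410, 1899, 434 and 521 CPM in animals A, D, E and G. The hypertrophic sums held 2116, 159, 916 and 491 CPM in animals A, C, D and G. The zones overlapped in every pairing, and the animals differed: hypertrophic exceeded resting 24.2-fold in animal A, 1.52-fold in animal D and 1.04-fold in animal G. The fitted differences missed the threshold, with -1.11 ± 0.59 for resting against proliferative (adjusted p = 1), 0.67 ± 0.63 for hypertrophic against proliferative (adjusted p = 0.734) and -1.79 ± 0.66 for resting against hypertrophic (adjusted p = 0.108). The last passed without P2 animal G (-2.95, adjusted p = 0.0405), without its resting library alone (-2.66, adjusted p = 0.0407) and without P28 animal D (-1.73, adjusted p = 0.0285). P28 animal D has no P2 sums and enters through the scaling, the low-count filter and the shared spread alone. Without P2 animal A the difference was -0.29 with adjusted p = 0.938.

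At P28, Mgp was 3344, 11468 and 2577 CPM in the resting sums of animals A, B and D. The proliferative sums lay close together at 1718, 1725 and 1566 CPM, and the hypertrophic sums were spread over 4177, 1067 and 83.9 CPM. Each resting sum stood above each proliferative sum, by 1.95-fold, 6.65-fold and 1.65-fold in animals A, B and D. That difference of 1.51 ± 0.60 on the log2 scale missed the threshold over all genes (adjusted p = 0.315, edgeR). Resting exceeded hypertrophic 10.7-fold in animal B and 30.7-fold in animal D. In animal A it was 0.801-fold, between libraries whose labels differ in the trailing number. The fitted difference of 2.25 ± 0.68 also missed the threshold (adjusted p = 0.0524). Without P28 animal A, whose resting library held Col10a1, this difference was 3.88 with adjusted p = 3.20e-04. Without that library alone it was 3.20 with adjusted p = 0.00999. It also passed without P2 animal C (2.28, adjusted p = 0.0460), without P2 animal G (2.28, adjusted p = 0.0464) and without the resting library of P2 animal G alone (2.27, adjusted p = 0.0483). P2 sums enter this P28 difference through the scaling, the low-count filter and the shared spread alone.

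The resting against hypertrophic difference of Mgp was higher at P28 than at P2 by 4.04 ± 0.94 on the log2 scale (interaction, adjusted p = 0.0135, edgeR). This call depended on the animals and settings: it was lost without P2 animal A (2.56, adjusted p = 0.422), P2 animal D (4.66, adjusted p = 0.103), P2 animal F (4.03, adjusted p = 0.115) or P28 animal B (3.20, adjusted p = 0.434), and also with DESeq2 (4.24, adjusted p = 0.0887) and with its size factors in edgeR (4.23, adjusted p = 0.597). P2 animal F has a resting sum only, so it enters this interaction through the scaling, the low-count filter and the shared spread alone. Without the resting library of P28 animal A the interaction was 5.0 with adjusted p = 0.00177. Without hypertrophic replicate 8 of P28 animal D it was 4.03 with adjusted p = 0.0134. The interactions of resting against proliferative (2.62 ± 0.84, adjusted p = 0.327) and of hypertrophic against proliferative (-1.42 ± 0.92, adjusted p = 0.893) missed the threshold. The first of these passed without P28 animal D (3.29, adjusted p = 0.0212).

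Set within a zone, Mgp in resting cells rose with age. The 3 P28 resting sums, at 2577 to 11468 CPM, all stood above the 4 P2 resting sums, at 87.5 to 604 CPM, and the rise was 4.12 ± 0.82 on the log2 scale (adjusted p = 0.00465, edgeR, with deposit set as a term). Of the 3 genes 1 passed in the resting zone, against 0.872% of the 3327 genes tested there. Without P2 animal D the change was 4.78 with adjusted p = 0.0603, and without P28 animal B it was 3.22 with adjusted p = 0.0678. In set A, the libraries with a coded description, 2 P2 animals were at 87.5 to 604 CPM and 2 P28 animals at 3344 to 11468 CPM. In set B, those without one, 2 P2 animals were at 215 to 471 CPM and the P28 animal at 2577 CPM. The order also held among resting libraries with more Y-linked than Xist counts, at 215 to 604 CPM in 3 P2 animals and 2577 CPM in 1 P28 animal.

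Markers of other cells were read in the same resting libraries. The perichondrium and fibroblast list was lower at P28, where 5 to 7 of its 10 genes were detected at a sum of 142 to 1121 CPM, than at P2, where 6 to 7 were detected at 1668 to 11482 CPM. Decorin, a proteoglycan of that list, was at 453 to 5233 CPM at P2 and 38.4 to 302 CPM at P28. Of 9 endothelial and smooth muscle markers 0 to 1 were detected at P28, with a sum of 0 to 18.4 CPM, against 0 to 4 at P2, with 0 to 63.9 CPM. Pecam1, which defines endothelium, was at 0 in all 7 resting libraries of both ages. The resting libraries of P28 animals A and B held 108601 and 135624 counts in all, a depth at which low markers can be missed. Blood markers moved in the direction of Mgp, with 1 to 3 of 8 detected at 29.5 to 692 CPM at P28 against 1 to 2 at 4.93 to 29.5 CPM at P2. The hypertrophic list also did, with 5 to 6 of its 8 genes detected at a sum of 819 to 15451 CPM at P28 against 3 to 5 at 83.7 to 757 CPM at P2, and these ranges did not overlap. Of its genes 2 were tested with age in resting cells, and 0 passed. Without the resting library of P28 animal A, the one at 15451 CPM, the rise of Mgp was 4.12 (adjusted p = 0.00413). Their part in the result was not tested.

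For the proliferative zone, 0 of the 3 genes passed with age, against 0.679% of 4712 genes, where 265 had an unadjusted p under 0.05. Ucma at 443 to 936 CPM and Scrg1 at 717 to 1242 CPM in the 3 P28 sums stood above all 4 P2 sums, at 136 to 258 CPM and 130 to 610 CPM. How many of all genes were ordered in this way was not counted. The fitted changes were 1.48 ± 0.74 for Ucma (adjusted p = 0.865), 1.26 ± 0.65 for Scrg1 (adjusted p = 0.891) and 1.07 ± 0.56 for Mgp (adjusted p = 0.912). In the same zone 3 of the 4 hypertrophic list genes tested rose with age and 0 fell, against 0.679% of all genes, with a list median of 3.57 against 0.04. They were Col10a1 (7.37 ± 0.76, adjusted p = 6.50e-19), Alpl, an alkaline phosphatase (4.87 ± 1.17, adjusted p = 0.00805), and Pth1r, a parathyroid hormone receptor (2.27 ± 0.57, adjusted p = 0.0150). The summed list overlapped between the ages, at 338 to 12172 CPM in P28 and 655 to 1379 CPM in P2 proliferative libraries. Its part in the result was not tested. In the resting zone Ucma gave -0.63 ± 0.71 (adjusted p = 0.888) and Scrg1 0.01 ± 0.76 (adjusted p = 0.998), with overlapping ages. In the hypertrophic zone 0 of the 2 genes tested passed, against 0.102% of 1963 genes, where 103 had an unadjusted p under 0.05. Mgp was at 0.34 ± 0.82 (adjusted p = 0.998) and Scrg1 at 2.89 ± 1.30 (adjusted p = 0.858), and Ucma did not pass the filter on low counts there.

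The balance among the 3 genes within a library does not depend on scaling. Of their summed counts, Ucma took 61.2% to 73.8% in the 4 P2 resting sums and 7.27% to 18.3% in the 3 P28 resting sums. Mgp took 7.80% to 21.6% of them at P2 and 71.8% to 90.8% at P28. These ranges did not overlap. The 3 shares add to 100%, so a rise of Mgp alone lowers the share of Ucma. In CPM, Ucma in resting cells changed by -0.63 ± 0.71 on the log2 scale with age (adjusted p = 0.888, edgeR), with overlapping ages. In proliferative sums Mgp took 36.8% to 75.1% at P2 and 41.8% to 59.8% at P28. In P2 hypertrophic sums Mgp took 84.6% to 100%. At P28 its hypertrophic share ran from 37.8% to 99.1%.

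**Figure D3:**
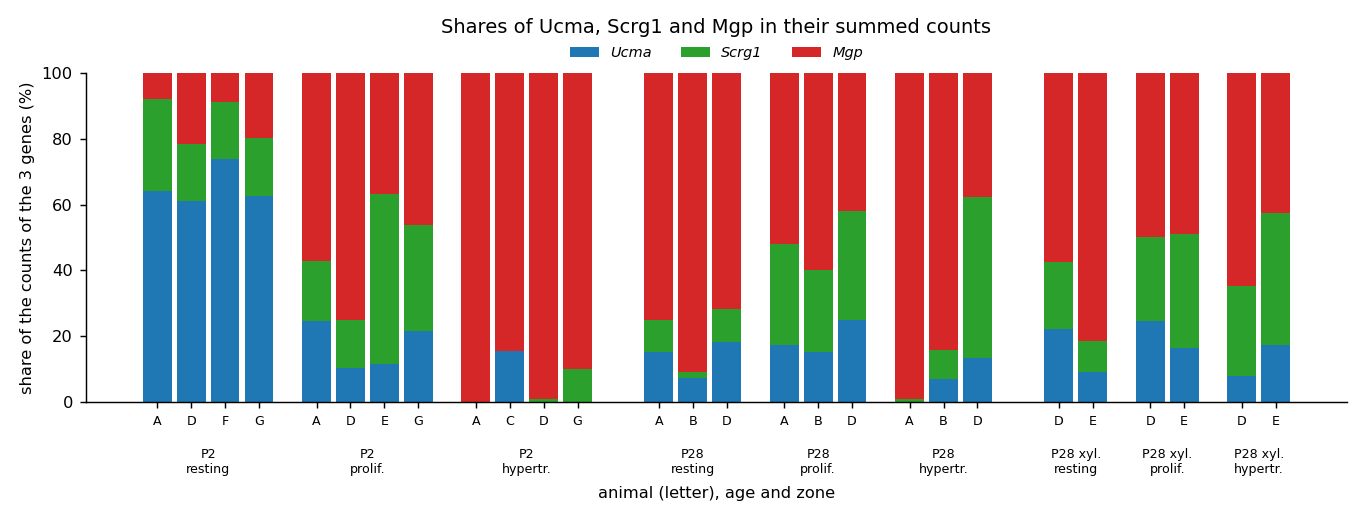
Share in percent of the summed counts of Ucma, Scrg1 and Mgp in each sum, with 1 bar per animal (letter), grouped by age, fixation and zone. Ucma fills 61.2% to 73.8% of the P2 resting bars, and Mgp fills 71.8% to 90.8% of the P28 resting bars. The shares in a bar depend on each other, since a rise of 1 gene lowers the shares of the others.

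Levels per kilobase of exon allow the genes to be set against each other. In P2 resting sums Ucma stood at 1615 ± 555 CPM per kilobase (SD, n = 4), Scrg1 at 584 ± 99.9 and Mgp at 290.1 ± 198. In P28 resting sums Mgp went from last to first, at 4883 ± 4151 CPM per kilobase (SD, n = 3). Ucma stayed above Scrg1 by mean, at 849 ± 164 against 490 ± 141 CPM per kilobase. In P28 proliferative sums Scrg1 at 1416 ± 376 and Mgp at 1407 ± 75.5 CPM per kilobase were within their spread, and Ucma was at 734 ± 289. In hypertrophic sums Mgp was highest by mean at both ages, at 775 ± 720 at P2 and 1496 ± 1800 CPM per kilobase at P28, with Scrg1 at 23.0 ± 37.2 and 124 ± 58.1 and Ucma at 8.43 ± 16.1 and 44.1 ± 50.3. Those of Mgp spread nearly as widely as their mean or more.

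Col2a1, the main collagen of cartilage, served as a scale for cartilage RNA. It did not pass any zone test at either age (adjusted p of 0.155 to 1), and its CPM per sum averaged 55126 ± 41657 in P2 resting and 39410 ± 14680 in P28 resting sums (SD, n = 4 and 3). Per 100 counts of Col2a1, Ucma gave 1.65 to 9.99 counts in P2 resting, 0.576 to 1.32 in P2 proliferative and 0 to 0.446 in P2 hypertrophic sums, so the zones kept their order without overlap. At P28 it gave 1.53 to 2.86 in resting and 0.597 to 0.811 in proliferative sums, which did not overlap on this scale although they did in CPM. For Scrg1 at P28 the reverse was found, with 0.466 to 1.56 in resting and 0.904 to 1.45 in proliferative sums, which overlapped. Col2a1 in CPM was itself lower in P28 resting than proliferative sums, at 0.630-fold, 0.688-fold and 0.167-fold in animals A, B and D. In animal D, Ucma in CPM was 0.702-fold. The ratios at P28 therefore carry the difference of Col2a1 too, and it is not a fixed scale. Mgp per 100 Col2a1 counts was 0.197 to 1.22 in P2 resting and 7.57 to 22.4 in P28 resting sums.

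In xylene-fixed P28 sections, with 2 animals, Ucma was 853 and 583 CPM in the resting sums of animals D and E, 805 and 345 CPM in proliferative and 85.5 and 114 CPM in hypertrophic sums. Scrg1 was 796 and 584 CPM in resting, 838 and 727 CPM in proliferative and 299 and 260 CPM in hypertrophic sums. For these genes the hypertrophic sums were the lowest in each animal, as in ethanol. Mgp was 2219 and 5126 CPM in resting, 1634 and 1029 CPM in proliferative and 705 and 278 CPM in hypertrophic sums, falling in that order in each animal.

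Mgp passed for resting against hypertrophic in xylene, by 3.02 ± 0.76 on the log2 scale (adjusted p = 0.0228, edgeR). Of the 3 genes 1 passed there, against 0.448% of the 10717 genes tested. Without the hypertrophic library that held bone collagen it was 3.11 with adjusted p = 0.00891. Without animal E it was 1.68 with adjusted p = 1, and the call was also lost without P2 animal D (2.99, adjusted p = 0.0685), P2 animal F (2.97, adjusted p = 0.0771) or P28 animal B (2.96, adjusted p = 0.0669). P2 animals D and F and P28 animal B have no xylene sums and enter through the scaling, the low-count filter and the shared spread alone. Ucma was higher in resting than in hypertrophic by 2.78 ± 0.89 (adjusted p = 0.177), and 2.35 without the library that held bone collagen (adjusted p = 0.246). Scrg1 gave 1.29 ± 0.88 (adjusted p = 0.889), and 0.77 without it (adjusted p = 0.888). For the other zone comparisons in xylene 0 of the 3 genes passed, against 0.140% of all genes for each, where 442 genes for resting against proliferative and 421 for hypertrophic against proliferative had an unadjusted p under 0.05.

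The test of xylene against ethanol at P28 took the 9 sums of set B. All its ethanol sums come from P28 animal D, and its xylene sums from animals D and E. Its terms were zone and fixation, with no animal term. Zones of 1 animal thus entered as separate values, the pairing in animal D was not used, and the SE does not measure spread between animals. In this test 0 of the 3 genes passed, against 0.0967% of 12408 genes, where 1545 had an unadjusted p under 0.05. The differences were 0.32 ± 0.73 for Ucma (adjusted p = 0.838), 0.83 ± 0.60 for Mgp (adjusted p = 0.532) and 0.52 ± 0.71 for Scrg1 (adjusted p = 0.708). The median of all genes was 1.79 on the log2 scale in this comparison, and 1.35 under the other scaling, so all 3 genes stood below it. No difference of a zone effect between the fixations passed for any of the 3 genes (adjusted p of 1 for each), against 0.00933% of all genes for resting or hypertrophic against proliferative and 0.0467% for resting against hypertrophic.

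The single P3 animal, in CPM over the total of each library, gave Ucma at 2424 in resting, 288 in proliferative and 1.31 in hypertrophic cells. Scrg1 was at 515, 491 and 49.5 CPM and Mgp at 529, 806 and 668 CPM in the same order. Its proliferative library held 355 Xist and 311 Y-linked counts. The libraries under 100000 counts were left out of all tests and pooled here as a description. The 5 P2 resting ones held 173 Ucma counts (746 CPM) and 36 Mgp counts (155 CPM), and the 5 P28 resting ones held 255 Ucma counts (859 CPM) and 1029 Mgp counts (3466 CPM). Of these shallow libraries, the 4 hypertrophic ones held 2 Ucma counts at P2 and the 4 at P28 also 2.

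Other genes of the vitamin K and Gla protein list were low or did not pass. Of its 14 genes 4 passed the low-count filter of the zone fit (Gas6, Ggcx, Vkorc1 and Nqo1), and 0 were called in any zone comparison at P2 or P28. Ggcx, the carboxylase, pooled to 84.5 CPM in P2 resting and 55.5 CPM in P28 resting sums, and Vkorc1, which recycles vitamin K, to 387 and 145 CPM. Gas6, a secreted Gla protein, pooled to 31.3 CPM in P2 resting and 101.1 CPM in P28 resting sums. The age fit over TMM-scaled sums per animal, with deposit set as a term, gave a change of 4.32 ± 1.60 on the log2 scale. That change did not pass (adjusted p = 0.280, edgeR), and it is not the ratio of the pooled values. Osteocalcin (Bglap), the Gla protein of bone, had 1 count over all 21 sums.

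Of 8 binding partners and regulators 4 were tested. Bmp2, a bone morphogenetic protein, was higher in P2 hypertrophic than proliferative cells by 6.60 ± 1.95 on the log2 scale (adjusted p = 0.0367, edgeR). At P28 it was 5.30 ± 1.97 (adjusted p = 0.203). Runx2 and Sox9, transcription factors of chondrocytes, and the integrin Itgb1 did not pass in any zone comparison at either age.

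Of 24 genes on the early chondrocyte matrix list 21 were tested. At P2, 3 of them fell and 0 rose in hypertrophic against proliferative cells, with a list median of -0.26 against -0.36 for all genes, of which 2.31% passed. They were Prelp (-5.63 ± 0.76, adjusted p = 2.34e-10) and Fmod (-4.49 ± 0.71, adjusted p = 1.75e-07), small leucine-rich proteoglycans that bind collagen, and Lect1 (-2.38 ± 0.58, adjusted p = 0.00484), chondromodulin, which restrains blood vessels. At P28, 3 fell and 0 rose, with a median of -0.35 against -0.52 for all genes, of which 1.12% passed, and Prelp (-4.36 ± 0.68, adjusted p = 2.48e-07), Fmod (-2.77 ± 0.62, adjusted p = 0.00253) and Epyc, another proteoglycan of cartilage (-3.57 ± 0.89, adjusted p = 0.0114), were those. For resting against proliferative, Comp fell at P2 (-2.73 ± 0.53, adjusted p = 4.09e-04), and Hapln1, which links aggrecan to hyaluronan (-2.0 ± 0.45, adjusted p = 0.00504), and Col11a1 (-1.70 ± 0.42, adjusted p = 0.0226) fell at P28. Of all genes, 0.259% passed in that comparison at P2 and 0.561% at P28. For resting against hypertrophic at P2, 5 list genes were higher and 4 lower in resting cells, with a median of 0.32 against 0.52 for all genes, of which 3.77% passed. By smallest p they were led by Comp (-3.99 ± 0.56, adjusted p = 7.96e-10), Fmod (4.51 ± 0.71, adjusted p = 9.04e-08), Epyc (4.98 ± 0.99, adjusted p = 8.89e-05) and Lect1 (2.72 ± 0.58, adjusted p = 3.85e-04). At P28, Prelp was higher (2.43 ± 0.65, adjusted p = 0.0173) and Hapln1 (-2.20 ± 0.46, adjusted p = 4.38e-04) and Matn1 (-2.23 ± 0.65, adjusted p = 0.0372) were lower, with a median of -0.72 against -0.27 for all genes, of which 1.77% passed.

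With age in the proliferative zone, 6 of the 20 genes tested from the early matrix list rose and 1 fell, against 0.679% of all genes in either direction, with a list median of 1.07 against 0.04 for all genes. Col2a1 rose by 1.62 ± 0.26 (adjusted p = 2.29e-07, edgeR) and Hapln1 by 1.83 ± 0.36 (adjusted p = 1.89e-04), and the one that fell was Matn1, a matrilin (-2.47 ± 0.59, adjusted p = 0.00752). In the resting zone, where Mgp rose, 0 of 20 rose and 1 fell, namely Epyc (-3.93 ± 1.0, adjusted p = 0.050), and the list median was 0.19 against -0.53 for all genes, of which 0.872% passed.

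The likeness of patterns was described by Pearson's r of log2(CPM + 1) over the 21 ethanol sums, among 1566 genes with a mean of at least 50 CPM. These sums share animals and depth, and r is given with no test. Nearest to Ucma were Mrc2, a collagen receptor (0.92), the proliferation marker Mki67 (0.88), Angptl2 (0.86), Crispld2 (0.86) and Snai2 (0.86), a transcription factor. Nearest to Scrg1 were Fmod (0.95), Prelp (0.92), 1500015O10Rik (0.90), Pcolce (0.90) and Lect1 (0.89). No gene came as near to Mgp, whose highest values were 0.66 for Actr2, 0.66 for Prnp, 0.61 for Hhip, an inhibitor of Hedgehog signalling, 0.59 for Capns1 and 0.59 for Reep5. Among the 3 genes, Ucma and Scrg1 gave r = 0.77 (Spearman's rho 0.73), Mgp and Scrg1 r = 0.11 (rho 0.10), and Ucma and Mgp r = -0.03 (rho -0.01).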

How the data were processed

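The authors deposited raw counts of reads for each gene symbol, and the submitters' processing notes name cutadapt, STAR 2.5.2b, featureCounts 1.5.3, Subread and the build mm10. For the annotation, the strand setting and multi-mapped reads, the sources used here give nothing. The 100 columns belong to 68 libraries. The 32 titles with 2 columns were summed as repeat runs, after 65 of 67 member values differed by no more than 2 standard deviations of counting. Libraries of at least 100000 counts were summed per animal and zone. Tests used edgeR 4.0.16 in R 4.3.3 (TMM, filterByExpr, robust quasi-likelihood), checked on simulated data, with Benjamini-Hochberg adjustment over all genes tested and a threshold of 0.05. The zone fit has the animal as a block, since zones of 1 animal share it per the labels once trailing numbers are ignored. It leaves 8 residual degrees of freedom, and each age fit, with deposit set as a term, leaves 4. The spread of each gene is moderated by that of the other genes, so p-values can be smaller than these few degrees of freedom alone would give. SE is the fitted log2 change divided by the root of F. DESeq2 1.42.0 served as an alternative. Always named were Ucma, Mgp, Scrg1 and Col2a1, with the 5 genes most like each member and at most 4 called genes per list and comparison. Further genes are markers of other cells or pathway genes given for their level. The members and lists were chosen with earlier results of these data known. Intervals cover counting error only. Whether groups overlap is given as a description, since the share of all genes without overlap was not counted.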

Additional observations from a re-analysis of the deposited data

Results flagged for a closer look

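In 15 groups of 4 or 5 values, Dixon's test for a value far from the rest of its group marked 2, and chance marks about 1 group in 20. Ucma in the P2 hypertrophic sum of animal C was 28.84 CPM, while the other P2 hypertrophic sums were at 0 to 0.955 CPM. The value of animal C rests on 2 counts, as does that of animal G. A count of 0 in animal A allows up to 28.5 CPM, so this mark cannot be told apart from unequal depth. Mgp in the P2 proliferative sum of animal D was 1899 CPM, while the others were at 410 to 521 CPM. The difference between resting and hypertrophic cells changed with age for Ucma, by -6.31 on the log2 scale, and for Mgp, by 4.04, each past the threshold in an interaction test (edgeR) and each lost when single animals were left out.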

How the results depend on the processing

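Over 1051 refits of the 56 member results, 970 kept the direction and the side of the threshold. Some refits could not change a result, such as the age fit of resting cells without P2 animal C, which has no resting sum there. Most of the 56 had not passed in the main fit either. The 970 thus do not measure how firm the calls are. The exceptions under other settings follow as log2 values, and those from left-out animals and libraries after them, with the cause not tested. The falls of Ucma from proliferative to hypertrophic and from resting to hypertrophic at P2, and from resting to hypertrophic at P28, kept their calls under every alternative run. Without the replicate block, that is without the pairing of zones by animal, calls were lost for hypertrophic against proliferative at P28 in Ucma (-3.99, adjusted p = 0.0894) and Scrg1 (-3.49, adjusted p = 0.146), for resting against hypertrophic in xylene in Mgp (2.90), and for the interaction of resting against hypertrophic with age in Ucma (-4.70) and Mgp (3.13), while Mgp turned to 0.086 for hypertrophic against proliferative at P28 and to -0.25 for the difference between fixations in resting against proliferative. The interaction of Mgp also lost its call with DESeq2's size factors (4.23), DESeq2 (4.24), the P3 animal added (3.87), a fit without robust moderation (4.04), a library minimum of 50000 counts (3.51) and the added minimum of 50000 counts outside Rn45s, Lars2 and Glra2 (2.90). The library minimum of 50000 counts also ended the calls of Ucma for that interaction (-2.97), Scrg1 for hypertrophic against proliferative at P28 (-3.47) and Mgp for resting against hypertrophic in xylene (3.09), and turned Scrg1 for resting against proliferative at P2 (-0.10). Calls appeared for Scrg1 in resting against hypertrophic at P28 with DESeq2 (2.45, adjusted p = 0.0115), for Mgp there without the 3 symbols (2.32) and with every label as its own animal (2.93), and for Ucma in resting against proliferative at P2 with P3 added (2.45). The added minimum ended the call of Scrg1 for hypertrophic against proliferative at P2 (-3.52) and turned Mgp there (-0.86), Mgp with age in the hypertrophic zone (-0.13) and the interaction of Scrg1 for hypertrophic against proliferative (-0.021). Scrg1 with age in the resting zone, near 0, turned with no filter (-0.32), without the 3 symbols (-0.012) and with P3 added (-0.025). DESeq2's size factors turned Scrg1 for resting against proliferative in xylene (0.063), Ucma between fixations (-0.22), and the difference between fixations in resting against proliferative for Ucma (-0.17) and Mgp (-0.37).

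Leaving out each animal in turn, or P28 resting replicate 1, P28 proliferative replicate 9, P28 hypertrophic replicate 8 or P2 resting replicate 8 (for xylene results, each animal or xylene hypertrophic replicate 3), gave, for Ucma, 2.33 to 2.69 for resting against proliferative at P2, -0.41 to 0.69 at P28, -5.58 to -3.65 for hypertrophic against proliferative at P28, -7.83 to -5.32 for the interaction of resting against hypertrophic, and -0.088 to 0.42 for the fixation difference in resting against proliferative. Scrg1 ranged over -5.38 to -3.31 for hypertrophic against proliferative at P2, -3.90 to -3.05 at P28, -0.082 to 1.96 for that interaction, 3.97 to 6.19 for resting against hypertrophic at P2 and -0.47 to 0.12 with age in resting cells. Mgp ranged over -0.59 to 1.61 for hypertrophic against proliferative at P2, -2.48 to 0.43 at P28, -2.95 to -0.29 for resting against hypertrophic at P2, 1.38 to 3.88 at P28 (2.27 with a gained call, adjusted p = 0.0483, without P2 resting replicate 8), 1.68 to 4.20 in xylene, 2.56 to 5.67 for its interaction, 1.84 to 3.55 for the interaction of resting against proliferative, which gained a call without P28 animal D (3.29, adjusted p = 0.0212), 3.22 to 4.78 with age in resting cells and -0.88 to 1.15 in hypertrophic cells. The fixation differences of Mgp ranged over -2.25 to 0.96 for hypertrophic against proliferative, -0.85 to 2.55 for resting against hypertrophic and -1.08 to 0.78 for resting against proliferative.

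Counts of genes called over all genes moved more. Over settings and left-out animals, those at P2 ran from 5 to 46 for resting against proliferative (18 as reported), 28 to 369 for hypertrophic against proliferative (161) and 54 to 529 for resting against hypertrophic (262). At P28 they ran from 2 to 128 (39), 9 to 215 (78) and 28 to 344 (123) in that order. A library minimum of 300000 counts was not run, since no P28 resting sum reaches it. Levels of a few counts per sum limit Ucma and Scrg1 in hypertrophic cells.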
